A study of Homo sapiens with 22 samples.

Results

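LN-18, KALS-1 and T98G are established cell lines grown from human glioblastoma, a malignant brain tumour of glial character. RNA of LN-18 was set here against that of KALS-1 and T98G, each measured in 2 poly(A) RNA-seq libraries, so the comparison used 6 of the 22 libraries of the series. The cells were untreated and carried no introduced allele that the labels name. LN-18 was grown in DMEM, KALS-1 in RPMI medium and T98G in EMEM, each with 10% serum, so cell line and medium cannot be told apart. Each line is 1 tumour's line, and the labels do not say that its 2 libraries were prepared from different cultures. The p-values therefore reflect library-to-library variation alone, part of which may be technical.

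The members were the 2221 genes listed with reads for these libraries, 1581 of them protein coding by GENCODE 29. A gene was called in LN-18 only where both of its libraries lay beyond all 4 KALS-1 and T98G libraries and both fold changes were at least 2-fold. Of the 2221 genes, 1560 passed a filter on low reads and were tested, and 661 were not. The listed genes are not the whole transcriptome. Of the 2221 genes, 99.3% differed 2-fold or more in mean FPKM (reads scaled to gene length and library total) between these 3 lines together and the other 5 lines of the same table. A gene high in LN-18 alone can satisfy that split because of LN-18, so the choice of genes bears on how many were found higher.

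Library totals ran from 17117491 to 19652670 reads, and the listed genes held 5.81% to 9.19% of them. Each level is given as CPM, a gene's reads scaled to the total of its library. Where no read was found, up to 3 reads remain possible, which is 0.153 to 0.175 CPM, for counting error only. A fold against a line with 0 reads is a lower bound, taken against 3 reads over its 2 libraries, and against 1 to 3 reads the plain ratio is given with its counting interval. Among 894 genes with a mean of at least 50 reads, the 2 libraries of a line lay within 1.5-fold of each other for 96% of genes in LN-18 and 93.2% in KALS-1, against 56.8% in T98G. The T98G libraries therefore stood apart from each other, and T98G values below carry the widest spread. Some calls are said below to be lost when 1 library was left out. With an LN-18 or KALS-1 library left out, the spread in the fit came from the remaining pairs, the wide T98G pair among them. Such a loss does not show that the left-out library differed from its pair. The listed glial markers were near 0 in LN-18: SOX2, FABP7 and PTPRZ1 summed to 0.470 and 0.661 CPM in its libraries, against 3.15 and 2.30 CPM in KALS-1 and 0.212 and 0 CPM in T98G. The other glial markers of the fixed list were not analysed here.

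Glioblastoma lines kept in serum grow attached to plastic and commonly lose much of the glial programme of the tumour. Tumour cells of this kind are known to express developmental transcription factors, growth factor receptors and matrix genes of mesenchyme beside those of glia. They also differ in the innate immune genes that remain active, among them the sensors of foreign DNA and the interferon response.

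LN-18 stood above both lines at 259 genes, 16.6% of those tested, and under both at 106 genes, 6.79% (edgeR's quasi-likelihood test, with the larger of both p-values Benjamini-Hochberg adjusted over the 1560 genes, and an adjusted p under 0.05). Against KALS-1 alone it was higher at 463 genes (29.7%) and lower at 446 (28.6%). Against T98G alone it was higher at 528 (33.8%) and lower at 262 (16.8%). Both comparisons share the LN-18 libraries. Where TMM factors of the listed genes replaced the library totals, log2 fold changes over T98G moved by -0.32 and those over KALS-1 by 0.11, and the share of calls that were higher, 71.0% here against both lines and 66.8% against T98G, became 64.5% and 55.6%.

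Many of the 259 higher genes were close to absent elsewhere. Both KALS-1 and T98G were at 1 CPM or less for 145 of them, and 9 had 0 reads in all 4 libraries of those lines. The median fold over the nearer of both lines was 6.53, and 103 genes were at least 10-fold higher. Most were modest in level: 98 had a mean of at least 10 CPM in LN-18 and 17 had at least 100 CPM. Of the 106 lower genes, 51 were at 1 CPM or less in LN-18 and 48 were at 10 CPM or more in both other lines. Their median fold was 4.23. A further 49 genes were higher in LN-18 than in KALS-1 and lower than in T98G, and 87 were the other way round.

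**Figure D1:**
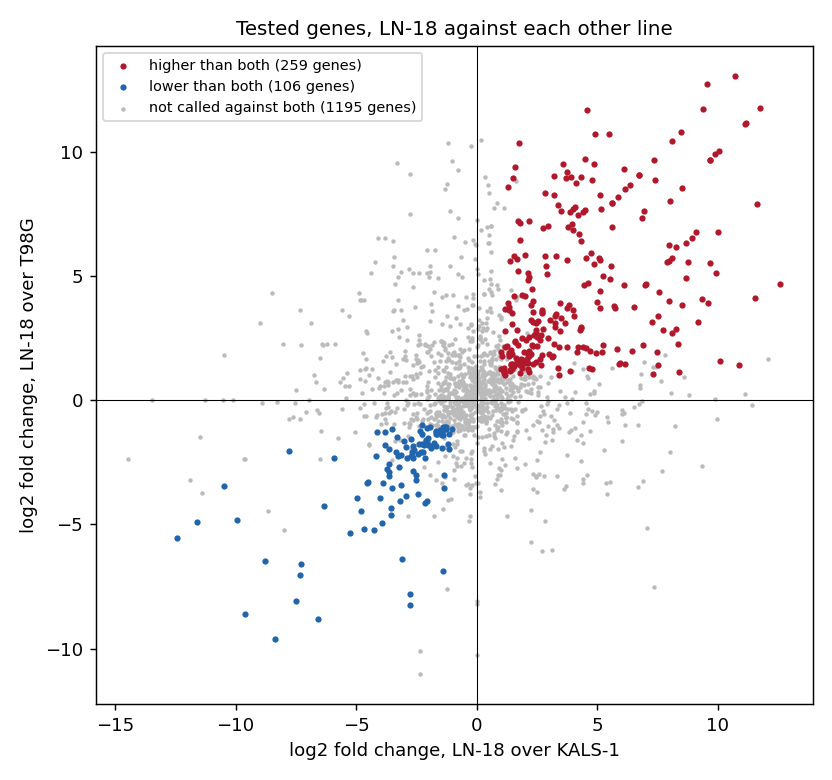
Each point is 1 of the 1560 tested genes, at its log2 fold change of LN-18 over KALS-1 (horizontal axis) and over T98G (vertical axis). The 259 genes higher than both lines fill the upper right in red, the 106 lower than both fill the lower left in blue, and grey points were not called against both.

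The rate of calls depended on the side of the gene choice on which a gene lay. Among the 834 tested genes whose mean over the 3 lines was above that of the other 5 lines, 191 (22.9%) were higher in LN-18 than in both lines and 40 (4.80%) were lower. Among the 726 genes on the other side, 68 (9.37%) were higher and 66 (9.09%) were lower.

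The gene with the largest gap to the nearer line was GTSF1 (chr12:54455950-54473602, GRCh38, minus strand), which in mice binds PIWI proteins and helps piRNAs to silence transposons in the germline. It had 56.7 and 59.2 CPM in LN-18, against 0 and 0.0510 CPM in KALS-1 and 0 reads in both T98G libraries, the KALS-1 value being 1 read. All 4 libraries of the other lines were thus at or near 0 (a LN-18 to KALS-1 ratio of 2128 with a 95% counting interval of 382 to 84092, at least 695-fold higher than T98G, adjusted p = 8.03e-05). PIWIL4, a PIWI protein of the same pathway, had 11.7 and 12.5 CPM in LN-18, against 0.700 and 0.561 CPM in KALS-1 and 0.159 and 0.0584 CPM in T98G. Both LN-18 libraries lay far above the other 4 (log2 fold change 4.25 ± 0.33 over KALS-1 and 6.68 ± 0.42 over T98G, adjusted p = 0.000255). These were 2 of the 3 tested genes of a germline list, beside 16.6% of all tested genes that were higher than both lines. The GTSF1 transcript reached 22.955 FPKM in LN-18 against 2.69 FPKM for PIWIL4.

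Among the leading genes were UNC13D and VAMP8, which act in vesicle fusion. UNC13D (Munc13-4), which primes lytic granules for release in cytotoxic lymphocytes, had 32.6 and 39.5 CPM in LN-18, against 0.117 and 0.153 CPM in KALS-1 and 0.689 and 0.234 CPM in T98G. VAMP8, a SNARE protein of endosomes and secretory granules, had 62.1 and 61.4 CPM in LN-18, against 0.117 and 0.153 CPM in KALS-1 and 1.27 and 1.29 CPM in T98G. Neither gene reached 2 CPM in a KALS-1 or T98G library. The differences were log2 fold change 7.98 ± 0.48 over KALS-1 and 6.24 ± 0.41 over T98G, adjusted p = 0.000147 for UNC13D, and log2 fold change 8.76 ± 0.27 over KALS-1 and 5.59 ± 0.21 over T98G, adjusted p = 2.44e-05 for VAMP8. STXBP2 (Munc18-2), which acts with syntaxin at the same step and was picked after its values were seen, had 7.10 and 7.99 CPM in LN-18, against 1.23 and 1.02 CPM in KALS-1 and 0.106 and 0 CPM in T98G. For STXBP2, neither LN-18 library overlapped the other 4 (log2 fold change 2.74 ± 0.39 over KALS-1, a LN-18 to T98G ratio of 136 with a 95% counting interval of 37.3 to 1127, adjusted p = 0.00205).

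RELN, the secreted glycoprotein that guides migrating neurons in the cortex (chr7:103471784-103989516, minus strand), had 14.7 and 16.2 CPM in LN-18, against 0 reads in all 4 KALS-1 and T98G libraries. It was at least 189-fold higher than KALS-1 and at least 185-fold higher than T98G (adjusted p = 0.000343). NEURL1, the human counterpart of the Drosophila ubiquitin ligase neuralized, had 43.3 and 42.2 CPM in LN-18, against 0.292 and 0.204 CPM in KALS-1 and 0.0530 and 0.117 CPM in T98G. NEURL1 was higher in LN-18 than in every other library (log2 fold change 7.41 ± 0.30 over KALS-1 and a LN-18 to T98G ratio of 513 with a 95% counting interval of 175 to 2489.5, adjusted p = 2.44e-05). MUC15, a cell surface mucin, had 22.1 and 21.0 CPM in LN-18, against 0 reads in both KALS-1 libraries and 0.0530 and 0.117 CPM in T98G. It stood at least 264-fold higher than KALS-1 and had a LN-18 to T98G ratio of 259 with a 95% counting interval of 88.2 to 1257 (adjusted p = 0.000147). PWWP3B, a chromatin reader domain gene on the X chromosome, had 22.6 and 22.9 CPM in LN-18, against 0 and 0.0510 CPM in KALS-1 and 0 reads in both T98G libraries (at least 273-fold higher than T98G, adjusted p = 0.000147). LIPC, the hepatic lipase gene, had 12.3 and 11.8 CPM in LN-18, against 0 and 0.0510 CPM in KALS-1 and 0 reads in both T98G libraries (at least 144-fold higher than T98G, adjusted p = 0.000313). None of these 5 genes reached 1 CPM in a KALS-1 or T98G library.

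Among transporters, both leading genes export drugs or lipophilic conjugates. ABCB1 (P-glycoprotein, the multidrug efflux pump) had 29.1 and 30.0 CPM in LN-18, against 0.409 and 0.817 CPM in KALS-1 and 0.848 and 0.526 CPM in T98G. ABCB1 was higher in both LN-18 libraries than in the other 4 (log2 fold change 5.56 ± 0.36 over KALS-1 and 5.40 ± 0.36 over T98G, adjusted p = 0.000147). ABCC11, an efflux pump of the same superfamily, had 19.3 and 16.4 CPM in LN-18, against 0.175 and 0.102 CPM in KALS-1 and 0.0530 and 0.117 CPM in T98G (log2 fold change 6.96 ± 0.38 over KALS-1, a LN-18 to T98G ratio of 214 with a 95% counting interval of 72.8 to 1038, adjusted p = 8.03e-05). ABCA10, of the same superfamily, had 7.26 and 6.97 CPM in LN-18, against 0.292 and 0.102 CPM in KALS-1 and 0.0530 and 0 CPM in T98G. LN-18 thus stood above all 4 other libraries for each of the 3 genes. ABCC1, another drug exporter, went the other way against T98G: it had 131 and 133 CPM in LN-18, against 157 and 152 CPM in KALS-1 and 516 and 984 CPM in T98G (log2 fold change -2.51 ± 0.31 over T98G, adjusted p = 0.000544 by the T98G contrast alone). SLC22A23, an organic ion transporter of unclear substrate, was the 1 member lower than both lines, at 1.78 and 2.44 CPM in LN-18, against 19.2 and 23.3 CPM in KALS-1 and 6.47 and 11.3 CPM in T98G. SLC22A23 was lower in LN-18 than in every other library (log2 fold change -3.33 ± 0.35 over KALS-1 and -2.07 ± 0.34 over T98G, adjusted p = 0.00357). Of 38 tested members of the transporter list, 5 (13.2%, beside 16.6% of all tested genes) were higher than both lines, among them the riboflavin transporter gene SLC52A3.

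The remaining leading genes are of uncertain identity or role. LINC01029, a long non-coding RNA on chromosome 18, had 48.3 and 43.6 CPM in LN-18, against 0 and 0.102 CPM in KALS-1 and 0 reads in both T98G libraries. FAM95A and the pseudogene UBBP4 have near-identical copies in the genome, so their reads may belong to a relative. FAM95A had 23.5 and 23.5 CPM in LN-18, against 0 reads in all 4 KALS-1 and T98G libraries. The gene known only as ENSG00000289459 had 15.3 and 15.3 CPM in LN-18, against 0 reads in all 4 KALS-1 and T98G libraries. The plot of leading genes shows that all 15 higher genes, TNFSF18 included, had both LN-18 libraries above all 4 others.

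**Figure D2:**
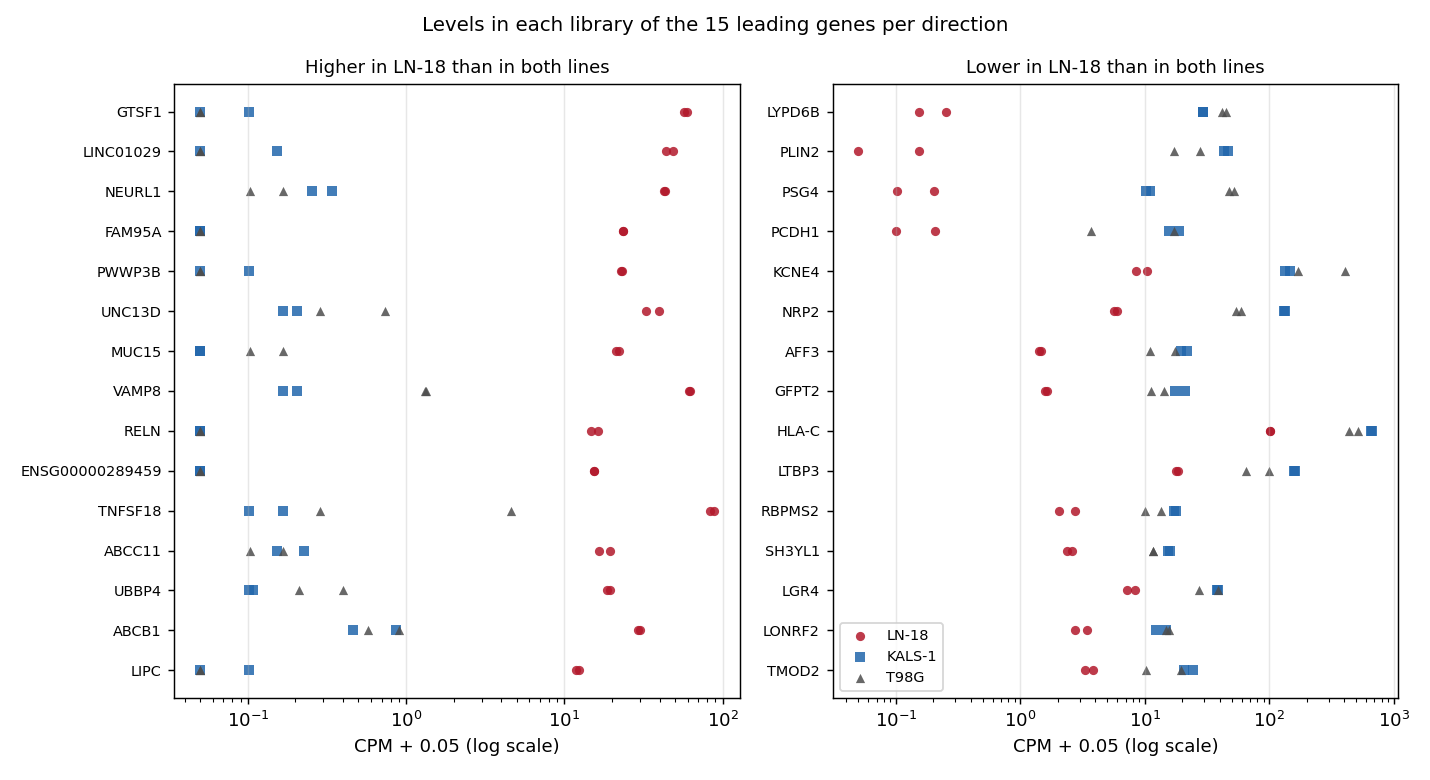
Level of the 15 leading genes per direction in each of the 6 libraries, as CPM + 0.05 on a log axis, with LN-18 as red circles, KALS-1 as blue squares and T98G as grey triangles. In the left panel both LN-18 libraries lie right of all others for every gene, and in the right panel they lie left of all others. The T98G libraries lie far apart for PCDH1 and TNFSF18.

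Of the tumour necrosis factor family, TNFSF18, TNFRSF10A and TNFRSF1B were higher in LN-18 than in both lines and TNFRSF13C was lower. TNFSF18, the ligand of the T-cell receptor GITR, had 82.7 and 88.1 CPM in LN-18, against 0.117 and 0.0510 CPM in KALS-1 and 4.56 and 0.234 CPM in T98G. Its T98G libraries differed widely from each other, yet both stayed under LN-18 (a LN-18 to KALS-1 ratio of 1046 with a 95% counting interval of 358 to 5074, log2 fold change 5.13 ± 0.88 over T98G, adjusted p = 0.00411). TNFRSF10A, a death receptor for the ligand TRAIL, had 22.0 and 22.7 CPM in LN-18, against 1.05 and 0.817 CPM in KALS-1 and 0 reads in both T98G libraries. T98G was therefore at 0, KALS-1 was about 1 CPM, and LN-18 stood above both (log2 fold change 4.58 ± 0.28 over KALS-1 and at least 268-fold higher than T98G, adjusted p = 0.000217). TNFRSF10A-AS1 overlaps the gene on the other strand, and reads of the pair cannot be told apart where counting ignored strand. TNFRSF1B, a receptor for tumour necrosis factor, had 4.60 and 5.24 CPM in LN-18, against 0.292 and 0.306 CPM in KALS-1 and 0.530 and 0.234 CPM in T98G. TNFRSF1B was higher in both LN-18 libraries than in the other 4 (log2 fold change 4.01 ± 0.44 over KALS-1 and 3.65 ± 0.42 over T98G, adjusted p = 0.000877).

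The chemokine receptor CCR3, best known on eosinophils, had 11.5 and 9.46 CPM in LN-18, against 0.0584 and 0.153 CPM in KALS-1 and 0.265 and 1.29 CPM in T98G. For CCR3, neither LN-18 library overlapped the other 4 (log2 fold change 6.51 ± 0.75 over KALS-1 and 3.77 ± 0.58 over T98G, adjusted p = 0.00266). IL27RA, a subunit of the interleukin-27 receptor, named after its values were seen, had 38.7 and 40.8 CPM in LN-18, against 8.29 and 9.19 CPM in KALS-1 and 6.95 and 13.1 CPM in T98G. IL27RA was higher in LN-18 than in every other library (log2 fold change 2.18 ± 0.30 over KALS-1 and 1.99 ± 0.30 over T98G, adjusted p = 0.00249). In all, 5 of 23 tested cytokine and receptor genes (21.7%) were higher than both lines and 1 (4.35%) was lower. Their median log2 fold change was 0.52 over KALS-1 and 0.06 over T98G. Over all tested genes the shares were 16.6% and 6.79%, and the medians were -0.01 and 0.47. The lower gene was TNFRSF13C, the receptor for BAFF on B cells, with 0.940 and 1.17 CPM in LN-18, against 2.33 and 2.40 CPM in KALS-1 and 2.81 and 2.57 CPM in T98G. TNFRSF13C lost its call without LN-18 replicate 1 (adjusted p = 0.205), LN-18 replicate 2 (adjusted p = 0.121), KALS-1 replicate 1 (adjusted p = 0.105) or KALS-1 replicate 2 (adjusted p = 0.111).

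PDGFRA, the platelet-derived growth factor receptor that is often amplified or overexpressed in glioma, was the leading receptor tyrosine kinase. It had 76.1 and 76.3 CPM in LN-18, against 0.117 and 0.459 CPM in KALS-1 and 2.81 and 6.78 CPM in T98G. Both LN-18 libraries were close to each other and stood above every other library (log2 fold change 7.97 ± 0.61 over KALS-1 and 3.99 ± 0.46 over T98G, adjusted p = 0.000832). Its ligand gene PDGFA had 6.48 and 5.75 CPM in LN-18, against 11.1 and 10.513 CPM in KALS-1 and 22.4 and 18.8 CPM in T98G and was not called against both lines, and neither was PDGFB, with 14.7 and 14.5 CPM in LN-18, against 40.2 and 35.9 CPM in KALS-1 and 5.09 and 0.584 CPM in T98G. MUSK, the receptor kinase that organises the neuromuscular junction, had 4.23 and 4.53 CPM in LN-18, against 0.175 and 0 CPM in KALS-1 and 0.0530 and 0 CPM in T98G (a LN-18 to KALS-1 ratio of 53.6 with a 95% counting interval of 18.0 to 263, a LN-18 to T98G ratio of 158 with a 95% counting interval of 27.9 to 6264, adjusted p = 0.00141). BTC, a ligand of the epidermal growth factor receptor, had 1.10 and 0.661 CPM in LN-18, against 0 and 0.204 CPM in KALS-1 and 0 reads in both T98G libraries. The BTC call was lost without LN-18 replicate 1 (adjusted p = 0.255), LN-18 replicate 2 (adjusted p = 0.121) or KALS-1 replicate 1 (adjusted p = 0.152). With DESeq2 the adjusted p of BTC was 0.139. These were the 3 of 12 tested genes of the list higher than both lines (25.0%, beside 16.6% of all tested genes), against 2 with DESeq2. The 0 lower ones stayed 0 with limma and DESeq2, against 2 at an unadjusted p under 0.05. PDGFRA is also a marker of fibroblasts. Of the 3 listed fibroblast markers 2 were tested, and of these PDGFRA was higher and FAP lower in LN-18 than in both lines, while MFAP5 had at most 0.255 CPM in any library.

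In the Notch and Hedgehog list, DLK2, a Notch-like transmembrane protein, had 18.4 and 18.6 CPM in LN-18, against 1.69 and 1.68 CPM in KALS-1 and 1.64 and 0.759 CPM in T98G. For DLK2, neither LN-18 library overlapped the other 4 (log2 fold change 3.45 ± 0.34 over KALS-1 and 3.93 ± 0.36 over T98G, adjusted p = 0.000521). MAML3, a coactivator of Notch, was higher too, and lost its call without either LN-18 or either KALS-1 library (adjusted p between 0.0773 and 0.122). In the Wnt list, the frizzled receptor gene FZD6 was higher and the R-spondin receptor gene LGR4 lower than in both lines. FZD6 had 33.9 and 29.4 CPM in LN-18, against 0.175 and 0.204 CPM in KALS-1 and 16.3 and 13.8 CPM in T98G. The step over T98G was about 2-fold (log2 fold change 7.33 ± 0.30 over KALS-1 and 1.07 ± 0.19 over T98G, adjusted p = 0.00517) and was 0.74 with TMM and 0.80 with RLE factors, which ends the call. The FZD6 call was lost without LN-18 replicate 1 (adjusted p = 0.0770) or T98G replicate 2 (log2 fold change 0.96). LGR4 had 8.25 and 7.12 CPM in LN-18, against 38.2 and 38.8 CPM in KALS-1 and 27.1 and 38.7 CPM in T98G, so that both LN-18 libraries lay under the other 4 (log2 fold change -2.32 ± 0.23 over KALS-1 and -2.10 ± 0.23 over T98G, adjusted p = 0.000681).

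In the BMP and TGF-beta list, 3 of 10 tested genes (30.0%) were higher than both lines and 1 (10.0%), LTBP3, was lower. The shares over all tested genes were 16.6% and 6.79%. INHBB, a subunit of activin B, had 11.5 and 13.5 CPM in LN-18, against 0 reads in both KALS-1 libraries and 6.10 and 3.33 CPM in T98G. KALS-1 had no read and T98G was intermediate (at least 154-fold higher than KALS-1 and log2 fold change 1.41 ± 0.35 over T98G, adjusted p = 0.0230). Its log2 fold change over T98G was 1.07 with TMM factors (adjusted p = 0.0722) and 1.12 with RLE factors (adjusted p = 0.0623). The INHBB call was lost without LN-18 replicate 1 (adjusted p = 0.0906), LN-18 replicate 2 (adjusted p = 0.146) or KALS-1 replicate 1 (adjusted p = 0.0506). The other two, BMP6 and BMPR1B, were near 1 CPM in LN-18. The BMP6 call was lost without LN-18 replicate 1 (adjusted p = 0.208), LN-18 replicate 2 (adjusted p = 0.160), KALS-1 replicate 1 (adjusted p = 0.0981), KALS-1 replicate 2 (adjusted p = 0.0983) or T98G replicate 2 (adjusted p = 0.110), and with TMM (adjusted p = 0.0840) or RLE factors (adjusted p = 0.0759). The BMPR1B call was lost without LN-18 replicate 1 (adjusted p = 0.137), LN-18 replicate 2 (adjusted p = 0.326), KALS-1 replicate 1 (adjusted p = 0.221) or KALS-1 replicate 2 (adjusted p = 0.142), and with no filter on low reads (adjusted p = 0.0578). With DESeq2 INHBB alone of the list was higher than both lines (adjusted p = 0.115 for BMP6 and 0.180 for BMPR1B). Beside 16.6% of all tested genes, 2 of 11 tested p53 targets and cell-cycle inhibitors (18.2%) were higher. They were TNFRSF10A and DDB2, a sensor of ultraviolet DNA damage, which had 24.7 and 25.6 CPM in LN-18, against 8.99 and 9.59 CPM in KALS-1 and 10.4 and 7.65 CPM in T98G. DDB2 was higher in LN-18 than in every other library (log2 fold change 1.44 ± 0.22 over KALS-1 and 1.47 ± 0.22 over T98G, adjusted p = 0.00249).

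Of 29 tested genes of ion channels and neurotransmitter receptors, 6 (20.7%) were higher and 2 (6.90%) lower than both lines. These shares were near the 16.6% and 6.79% of all tested genes. With limma 4 were lower, and with DESeq2 4 were higher. SCN2A, ASIC5 and KCNH2 were among the higher ones. The SCN2A call was lost without LN-18 replicate 2 (adjusted p = 0.0503), those of ASIC5 and KCNH2 without either LN-18 or either KALS-1 library (adjusted p between 0.0551 and 0.207), and that of ASIC5 also with TMM (adjusted p = 0.0764) or RLE factors (adjusted p = 0.0689). SCN3A, a neuronal sodium channel expressed early in brain development, had 6.95 and 7.38 CPM in LN-18, against 1.05 and 0.612 CPM in KALS-1 and 2.12 and 2.10 CPM in T98G. SCN3A was higher in both LN-18 libraries than in the other 4 (log2 fold change 3.11 ± 0.34 over KALS-1 and 1.76 ± 0.31 over T98G, adjusted p = 0.00443). P2RY1, a receptor for ADP, had 2.30 and 2.85 CPM in LN-18, against 1.11 and 0.970 CPM in KALS-1 and 0 reads in both T98G libraries. For P2RY1, neither LN-18 library overlapped the other 4 (log2 fold change 1.31 ± 0.36 over KALS-1 and at least 30.9-fold higher than T98G, adjusted p = 0.0340). KCNC4, a fast potassium channel gene, was on the lower side with 0.679 and 0.712 CPM in LN-18, against 8.11 and 9.49 CPM in KALS-1 and 2.70 and 5.55 CPM in T98G (log2 fold change -3.65 ± 0.43 over KALS-1 and -2.55 ± 0.43 over T98G, adjusted p = 0.00371). Both LN-18 libraries were thus above all others for SCN3A and P2RY1 and under all others for KCNC4. Among 21 tested cadherin, protocadherin and integrin genes, 2 (9.52%) were higher and 2 (9.52%) lower, beside 16.6% and 6.79% of all tested genes. The integrin subunit gene ITGB8 was lower, but its call was lost with limma (adjusted p = 0.0874). Without either LN-18 or either KALS-1 library its log2 fold change was between -1.14 and -1.11, but the adjusted p was not under 0.05. Without T98G replicate 2 the log2 fold change of ITGB8 was -0.42, short of the limit. PCDH10, a protocadherin of the brain, had 7.73 and 9.92 CPM in LN-18, against 2.33 and 2.91 CPM in KALS-1 and 0 reads in both T98G libraries. PCDH10 was higher in both LN-18 libraries than in the other 4 (log2 fold change 1.75 ± 0.30 over KALS-1 and at least 106-fold higher than T98G, adjusted p = 0.00632). PCDH10 lost its call without LN-18 replicate 2 (adjusted p = 0.0732) or KALS-1 replicate 1 (adjusted p = 0.0683). CDH18, a neuronal cadherin, had 1.36 and 1.88 CPM in LN-18, against 0 reads in both KALS-1 libraries and 0.0530 and 0 CPM in T98G. For CDH18, neither LN-18 library overlapped the other 4 (at least 19.9-fold higher than KALS-1, a LN-18 to T98G ratio of 58.4 with a 95% counting interval of 10.1 to 2344, adjusted p = 0.00303).

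FOXA2 and FOXF1, transcription factors of endoderm and mesoderm development, were higher in LN-18. FOXA2, a pioneer factor of foregut and liver, had 4.91 and 6.06 CPM in LN-18, against 0 reads in both KALS-1 libraries and 0.106 and 0.117 CPM in T98G. KALS-1 was at 0, and T98G held 4 reads in all (at least 67.2-fold higher than KALS-1, log2 fold change 5.54 ± 0.47 over T98G, adjusted p = 0.000553). FOXF1, a factor of lung and gut mesenchyme, had 365 and 366 CPM in LN-18, against 1.46 and 0.714 CPM in KALS-1 and 121 and 209 CPM in T98G. Its divergent long non-coding neighbour FENDRR, which starts 1428 bases away on the other strand, had 330.0 and 331 CPM in LN-18, against 1.75 and 1.79 CPM in KALS-1 and 94.5 and 152 CPM in T98G. Both genes were thus abundant in LN-18, intermediate in T98G and under 2 CPM in KALS-1, the difference being log2 fold change 7.54 ± 0.33 over KALS-1 and 1.42 ± 0.24 over T98G, adjusted p = 0.00393 for FENDRR and log2 fold change 8.40 ± 0.46 over KALS-1 and 1.15 ± 0.32 over T98G, adjusted p = 0.0299 for FOXF1. The FOXF1 call against T98G was the weaker: its log2 fold change was 0.85 with TMM and 0.90 with RLE factors, which ends the call, as did limma (adjusted p = 0.0522). FOXF1 lost its call without LN-18 replicate 1 (adjusted p = 0.127), LN-18 replicate 2 (adjusted p = 0.133), KALS-1 replicate 1 (adjusted p = 0.0570), KALS-1 replicate 2 (adjusted p = 0.0555) or T98G replicate 1 (log2 fold change 0.81).

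The zinc finger repressor GFI1, known from blood stem cells and the inner ear, had 21.1 and 19.4 CPM in LN-18, against 1.58 and 1.43 CPM in KALS-1 and 0.0530 and 0 CPM in T98G. GFI1 was higher in LN-18 than in every other library (log2 fold change 3.75 ± 0.30 over KALS-1, a LN-18 to T98G ratio of 728 with a 95% counting interval of 130.3 to 28792, adjusted p = 0.000257). WT1, the Wilms tumour gene that acts in kidney and gonad development, had 19.6 and 18.3 CPM in LN-18, against 3.21 and 4.34 CPM in KALS-1 and 2.01 and 1.17 CPM in T98G. WT1 was higher in both LN-18 libraries than in the other 4 (log2 fold change 2.32 ± 0.30 over KALS-1 and 3.56 ± 0.32 over T98G, adjusted p = 0.00131). GFI1 and WT1 were picked after their values were seen. Of the 8 tested genes of the forkhead and GATA list, 3 were higher than both lines (37.5%, beside 16.6% of all tested genes), against 2 with limma. The 3 were FOXA2, FOXF1 and its non-coding neighbour FENDRR. The 0 lower ones stayed 0 at an unadjusted p under 0.05, with limma and with DESeq2. GATA4, a factor of heart and endoderm, had 7.05 and 5.75 CPM in LN-18, against 0 reads in both KALS-1 libraries and 5.09 and 7.13 CPM in T98G, near the T98G level, and GATA2 had 18.5 and 18.5 CPM in LN-18, against 50.8 and 48.5 CPM in KALS-1 and 1.86 and 2.57 CPM in T98G, between both lines.

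Some neural and mesenchymal factors lay on the other side. Of the 8 tested genes of the mesenchymal list, 3 (37.5%), PRRX1, ZEB2 and FAP, were lower than both lines. PDGFRA, of the same list, was the 1 higher (12.5%). Of 10 tested neural and glial identity genes, SOX5 was the 1 lower (10.0%). The shares over all tested genes were 6.79% lower and 16.6% higher. PRRX1, a homeobox factor of limb and cranial mesenchyme, had 0 and 0.102 CPM in LN-18, against 56.2 and 59.0 CPM in KALS-1 and 0.795 and 2.51 CPM in T98G. LN-18 held 2 reads in all, KALS-1 was far above, and T98G was low but above LN-18 (a KALS-1 to LN-18 ratio of 1119 with a 95% counting interval of 309 to 9248, a T98G to LN-18 ratio of 31.3 with a 95% counting interval of 8.28 to 264, adjusted p = 0.00637). ZEB2, a repressor of epithelial genes, averaged 11.8 ± 3.06 CPM in LN-18, 56.5 ± 5.65 CPM in KALS-1, with 23.8 ± 3.63 CPM in T98G (SD, n = 2 each) (log2 fold change -2.25 ± 0.24 over KALS-1 and -1.01 ± 0.24 over T98G, adjusted p = 0.0144). ZEB2 lost its call without LN-18 replicate 2 (adjusted p = 0.133), KALS-1 replicate 1 (adjusted p = 0.0564), KALS-1 replicate 2 (adjusted p = 0.0555) or T98G replicate 1 (log2 fold change -0.85). SOX5, a SOX factor of chondrocytes and neural progenitors, had 2.04 and 2.34 CPM in LN-18, against 7.82 and 9.95 CPM in KALS-1 and 7.53 and 7.65 CPM in T98G. SOX5 was lower in LN-18 than in every other library (log2 fold change -2.02 ± 0.25 over KALS-1 and -1.79 ± 0.25 over T98G, adjusted p = 0.00191). TFAP2A, a neural crest factor named after its values were seen, had 33.2 and 28.3 CPM in LN-18, against 231 and 239 CPM in KALS-1 and 97.972 and 127 CPM in T98G. Both LN-18 libraries lay under the other 4 for TFAP2A (log2 fold change -2.93 ± 0.21 over KALS-1 and -1.87 ± 0.20 over T98G, adjusted p = 0.000674).

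Keratins of simple epithelia differed in their order over the lines. KRT8, a keratin of simple epithelia, had 153 and 155 CPM in LN-18, against 57.1 and 55.0 CPM in KALS-1 and 13.5 and 13.0 CPM in T98G. KRT8 was higher in both LN-18 libraries than in the other 4 (log2 fold change 1.46 ± 0.15 over KALS-1 and 3.53 ± 0.17 over T98G, adjusted p = 0.000651). Its partner KRT18 had 196 and 214 CPM in LN-18, against 188 and 173 CPM in KALS-1 and 110.1 and 53.5 CPM in T98G, near KALS-1. KRT19, of the same family, had 1.51 and 1.37 CPM in LN-18, against 1.17 and 0.612 CPM in KALS-1 and 0 reads in both T98G libraries, and was not called against both lines. CDH1, the epithelial cadherin, had 7.99 and 8.14 CPM in LN-18, against 9.34 and 9.75 CPM in KALS-1 and 0 reads in both T98G libraries. Its difference from KALS-1 was not called (log2 fold change -0.24 ± 0.23 over KALS-1), while LN-18 was at least 96.8-fold higher than T98G. Of the 10 tested genes of the list, 2 (20.0%, beside 16.6% of all tested genes) were higher than both lines, KRT8 and MUC15. The 0 lower ones stayed 0 at an unadjusted p under 0.05, with limma and with DESeq2.

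Cells sense DNA in the cytosol through cGAS, which makes a messenger that STING passes on to kinases that induce type I interferon. Interferon then raises a set of antiviral genes through an enhancer element, the interferon-stimulated response element. In LN-18 the sensor and the adaptor gene differed from both other lines in opposite directions. CGAS, the sensor gene, had 41.7 and 42.2 CPM in LN-18, against 15.002 and 12.5 CPM in KALS-1 and 0.106 and 0 CPM in T98G. It was highest in LN-18 and, with 2 reads in all, near 0 in T98G (log2 fold change 1.61 ± 0.27 over KALS-1, a LN-18 to T98G ratio of 755 with a 95% counting interval of 209 to 6239, adjusted p = 0.00369), and without KALS-1 replicate 2 its adjusted p was 0.0646. STING1, the adaptor gene, had 8.93 and 9.41 CPM in LN-18, against 49.1 and 47.7 CPM in KALS-1 and 24.5 and 37.0 CPM in T98G. LN-18 was the lowest line for STING1 (log2 fold change -2.40 ± 0.24 over KALS-1 and -1.75 ± 0.23 over T98G, adjusted p = 0.00148).

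The interferon response genes themselves placed LN-18 beside T98G and far under KALS-1. Of 34 tested members of the list, 24 were lower and 5 higher than in KALS-1 (463 of 1560 genes, 29.7%, were higher and 446, 28.6%, lower among all tested genes), with a median log2 fold change of -3.01. Against T98G, 9 of the 34 were higher and 4 lower, beside 33.8% and 16.8% of all tested genes. The median over T98G was 0.53, near the 0.47 of all genes. IFI27 had 0.679 and 0.356 CPM in LN-18, against 763 and 727 CPM in KALS-1 and 0.159 and 0.117 CPM in T98G. IFI6 had 15.4 and 16.9 CPM in LN-18, against 1309.9 and 1318 CPM in KALS-1 and 9.81 and 13.6 CPM in T98G, and MX1, an antiviral GTPase, had 16.4 and 15.4 CPM in LN-18, against 619.7 and 622 CPM in KALS-1 and 9.65 and 11.3 CPM in T98G. For all 3, KALS-1 was the one line with high levels (log2 fold change -6.34 ± 0.26 over KALS-1 for IFI6 and -5.29 ± 0.20 over KALS-1 for MX1, with adjusted p = 4.88e-06 for MX1).

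IFIT1, which binds foreign RNA caps, had 10.3 and 10.7 CPM in LN-18, against 258 and 259 CPM in KALS-1 and 4.67 and 7.77 CPM in T98G (log2 fold change -4.62 ± 0.27 over KALS-1, adjusted p = 1.89e-05 for the KALS-1 contrast). RSAD2 (viperin) had 0.679 and 0.458 CPM in LN-18, against 106 and 103 CPM in KALS-1 and 0.318 and 0.526 CPM in T98G, and CCL5, a chemokine, had 0.0522 and 0 CPM in LN-18, against 91.5 and 91.1 CPM in KALS-1 and 0 and 0.175 CPM in T98G. OAS3, a sensor of double-stranded RNA, was intermediate in LN-18, at 121 and 125 CPM in LN-18, against 501 and 520.1 CPM in KALS-1 and 30.1 and 34.1 CPM in T98G (log2 fold change -2.05 ± 0.17 over KALS-1, log2 fold change 1.94 ± 0.17 over T98G). USP18, the protease that removes ISG15, showed the same order with 6.95 and 7.12 CPM in LN-18, against 58.9 and 56.6 CPM in KALS-1 and 1.96 and 2.51 CPM in T98G. The list was chosen with earlier results of these lines known, so its count is a description.

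Not every member followed that order. IFITM3, a restriction factor of endosomal virus entry, had 167 and 168 CPM in LN-18, against 90.4 and 77.0 CPM in KALS-1 and 347 and 435 CPM in T98G, so KALS-1 was the lowest line (log2 fold change 1.00 ± 0.19 over KALS-1, adjusted p = 0.00296 for the KALS-1 contrast, log2 fold change -1.22 ± 0.19 over T98G, adjusted p = 0.00156 for the T98G contrast). The KALS-1 call sat at the fold limit and was lost without LN-18 replicate 2 (log2 fold change 0.9951) or KALS-1 replicate 2 (log2 fold change 0.89). IFITM genes share near-identical stretches, so their reads are uncertain. BST2 (tetherin), which holds budding viruses at the cell surface, was 1 of 2 list members lower in LN-18 than in both lines, the other being STING1. BST2 had 23.6 and 26.7 CPM in LN-18, against 207 and 193 CPM in KALS-1 and 46.9 and 109 CPM in T98G. For BST2, neither LN-18 library overlapped the other 4 (log2 fold change -2.99 ± 0.39 over KALS-1 and -1.64 ± 0.37 over T98G, adjusted p = 0.0126). The BST2 call was lost without LN-18 replicate 1 (adjusted p = 0.0921), LN-18 replicate 2 (adjusted p = 0.0749), KALS-1 replicate 1 (adjusted p = 0.0506) or T98G replicate 2 (log2 fold change -0.90).

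BISPR is a long non-coding RNA whose annotated start lies 38 bases from that of BST2 on the opposite strand. It had 2.09 and 2.14 CPM in LN-18, against 9.28 and 7.81 CPM in KALS-1 and 3.34 and 8.76 CPM in T98G. LN-18 was lowest, as for BST2 (log2 fold change -2.01 ± 0.45 over KALS-1 and -1.51 ± 0.45 over T98G, adjusted p = 0.0379). Unlike for BST2, the KALS-1 and T98G libraries overlapped. BISPR was picked after its values were seen. BISPR lost its call without LN-18 replicate 1 (adjusted p = 0.168), LN-18 replicate 2 (adjusted p = 0.162), KALS-1 replicate 1 (adjusted p = 0.0981), KALS-1 replicate 2 (adjusted p = 0.0906) or T98G replicate 2 (log2 fold change -0.66), and with limma (adjusted p = 0.0660).

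The response element was looked for in the 250 bases upstream of each gene's start (RefSeq, GRCh38.p14), as GAAANNGAAA on either strand. Windows were at hand for 28 of the 34 list members (82.4%), the first listed window of each gene being used. Of these, 17 (60.7%) held the motif, against 3.02% of all 35116 windows, which are not limited to tested genes. Of the 17 genes with the motif, 12 were lower in LN-18 than in KALS-1, and of the 11 without it, 8 were, beside 28.6% of all tested genes. The motif is a description of these letters and not a measured site. Sequences of 4 genes are printed 5′ to 3′, because each holds the motif while the genes differ in outcome. For BST2 the whole window is given, which faces BISPR, and for IFI27, IFIT1 and IFITM3 the stretch around the matches. Capitals mark the matches, and the 2 matches of BST2 overlap.
BST2, chr19:17405631-17405880, minus strand: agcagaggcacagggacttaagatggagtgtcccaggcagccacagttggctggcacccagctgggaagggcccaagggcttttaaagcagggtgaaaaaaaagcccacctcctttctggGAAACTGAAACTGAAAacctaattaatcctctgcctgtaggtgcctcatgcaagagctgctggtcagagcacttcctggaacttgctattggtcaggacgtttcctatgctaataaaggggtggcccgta
IFI27, chr14:94110608-94110670, plus strand: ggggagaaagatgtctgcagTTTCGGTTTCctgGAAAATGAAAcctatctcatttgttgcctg
IFIT1, chr10:89392487-89392549, plus strand: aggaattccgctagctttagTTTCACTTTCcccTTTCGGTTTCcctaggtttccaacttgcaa
IFITM3, chr11:320866-320932, minus strand: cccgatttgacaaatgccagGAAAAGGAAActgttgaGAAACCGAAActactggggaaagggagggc

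IFI27, IFIT1 and BST2 were lower in LN-18 than in KALS-1, whereas IFITM3 was higher, and each carries the motif within the window. The plot of innate genes sets them side by side.

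**Figure D3:**
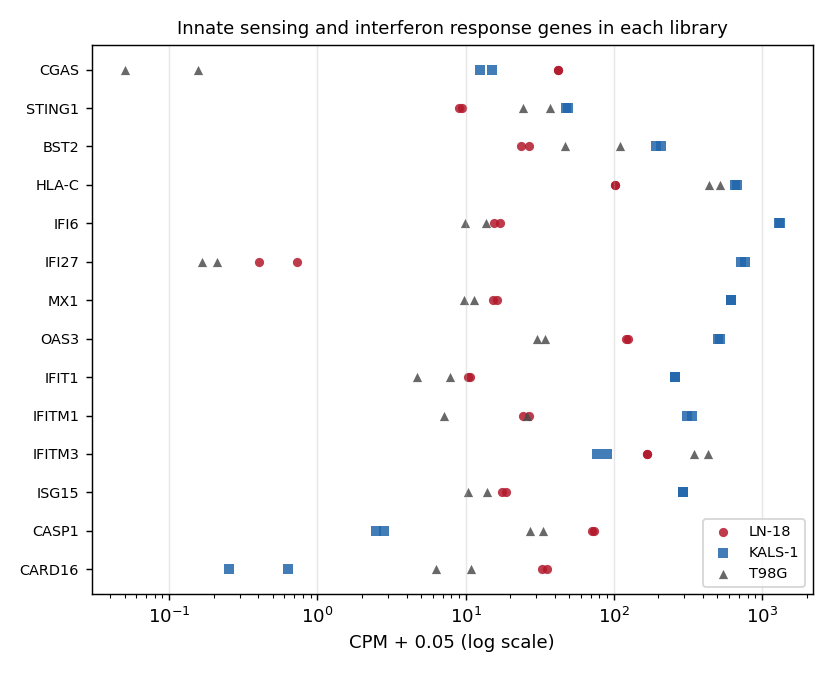
Level of genes of innate sensing, interferon response and inflammasome signalling in each of the 6 libraries, as CPM + 0.05 on a log axis, with LN-18 as red circles, KALS-1 as blue squares and T98G as grey triangles. LN-18 is highest for CGAS, CASP1 and CARD16, lowest for STING1, BST2 and HLA-C, and lies near T98G and far under KALS-1 for IFI6, MX1, IFIT1 and ISG15.

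CASP1, the inflammasome protease, was higher in LN-18 than in both lines, at 73.4 and 71.3 CPM in LN-18, against 2.45 and 2.76 CPM in KALS-1 and 27.2 and 33.4 CPM in T98G. Both LN-18 libraries lay above the other 4 (log2 fold change 4.79 ± 0.21 over KALS-1 and 1.26 ± 0.18 over T98G, adjusted p = 0.00192), although with TMM factors the log2 fold change over T98G was 0.94 and with RLE factors 0.995, just under the limit. CARD16, its neighbour, which carries a near-identical copy of its first domain, had 35.4 and 32.8 CPM in LN-18, against 0.584 and 0.204 CPM in KALS-1 and 6.31 and 10.8 CPM in T98G, and reads of the pair may be shared. Both were picked after their values were seen. HLA-C, a class I antigen-presenting molecule of a family with near-identical members, was lower than in both lines: 102 and 101 CPM in LN-18, against 673 and 655 CPM in KALS-1 and 440.2 and 519 CPM in T98G. HLA-C was lower in LN-18 than in every other library (log2 fold change -2.71 ± 0.19 over KALS-1 and -2.24 ± 0.19 over T98G, adjusted p = 0.000318). Of the 10 tested antigen presentation genes, 6 were lower than in T98G (262 of all 1560 were, 16.8%). Among them CD74, the invariant chain of class II molecules, had 0.261 and 0.204 CPM in LN-18, against 0.0584 and 0.408 CPM in KALS-1 and 1.96 and 1.93 CPM in T98G (log2 fold change -3.03 ± 0.60 over T98G, adjusted p = 0.00431 for the T98G contrast). HLA-DMA, which loads peptides onto class II molecules, had 1.78 and 2.24 CPM in LN-18, against 2.57 and 3.22 CPM in KALS-1 and 6.10 and 16.9 CPM in T98G.

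Several higher genes are best known from blood cells, and they were picked after their values were seen. ADGRE1, an adhesion receptor that marks macrophages in mice, had 35.1 and 35.3 CPM in LN-18, against 1.34 and 0.868 CPM in KALS-1 and 1.91 and 2.57 CPM in T98G. For ADGRE1, neither LN-18 library overlapped the other 4 (log2 fold change 5.00 ± 0.30 over KALS-1 and 3.97 ± 0.28 over T98G, adjusted p = 0.000155). GMFG had 37.9 and 38.5 CPM in LN-18, against 0.0584 and 0.153 CPM in KALS-1 and 6.20 and 9.76 CPM in T98G and GPSM3 had 43.4 and 48.3 CPM in LN-18, against 4.20 and 2.70 CPM in KALS-1 and 8.01 and 12.8 CPM in T98G. In contrast, the 4 listed immune cell markers stayed low in LN-18, where PTPRC, CD14, CSF1R and ITGAM summed to 2.40 and 2.49 CPM, against 16.9 and 18.5 CPM in KALS-1 and 1.54 and 2.69 CPM in T98G. PTPRC (CD45), the defining marker, had 0.0522 and 0 CPM in LN-18, against 5.90 and 6.02 CPM in KALS-1 and 0 and 0.0584 CPM in T98G, so it was at or near 0 in LN-18. ARHGAP45 and FMNL1, cytoskeletal genes of leukocytes, were also higher, with 71.9 ± 2.60 CPM in LN-18, 7.40 ± 0.645 CPM in KALS-1, with 6.43 ± 1.23 CPM in T98G (SD, n = 2 each) for ARHGAP45.

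The genes that LN-18 lacked were led by LYPD6B, a Ly6-family protein linked to nicotinic receptors. It had 0.104 and 0.204 CPM in LN-18, against 29.3 and 29.5 CPM in KALS-1 and 41.6 and 44.9 CPM in T98G, so all 6 LN-18 reads stood against 502 reads or more in every other library (log2 fold change -7.51 ± 0.30 over KALS-1 and -8.07 ± 0.30 over T98G, adjusted p = 2.44e-05). PLIN2, the protein that coats lipid droplets, had 0.104 and 0 CPM in LN-18, against 43.5 and 46.7 CPM in KALS-1 and 17.2 and 27.9 CPM in T98G. LN-18 held 2 reads of PLIN2 in all (a KALS-1 to LN-18 ratio of 877 with a 95% counting interval of 242 to 7250.1, a T98G to LN-18 ratio of 432 with a 95% counting interval of 119 to 3572, adjusted p = 0.000147). Of 18 tested genes of lipid and prostaglandin metabolism, 5 (27.8%) were higher than both lines and 2 (11.1%), PLIN2 included, were lower. Over all tested genes the shares were 16.6% and 6.79%. With limma 3 of the list were higher, and with DESeq2 4 were higher and 1 was lower. ACSL5, which activates fatty acids, was among the higher ones with 55.3 and 59.1 CPM in LN-18, against 6.19 and 4.90 CPM in KALS-1 and 16.1 and 30.1 CPM in T98G, as was the sphingosine kinase gene SPHK1 with 10.7 and 15.7 CPM in LN-18, against 2.86 and 4.03 CPM in KALS-1 and 3.60 and 5.26 CPM in T98G. The ACSL5 call was lost without LN-18 replicate 1 (adjusted p = 0.0660), LN-18 replicate 2 (adjusted p = 0.0846), KALS-1 replicate 1 (adjusted p = 0.0505) or T98G replicate 1 (log2 fold change 0.92). The SPHK1 call was lost without LN-18 replicate 2 (adjusted p = 0.0875) or KALS-1 replicate 1 (adjusted p = 0.0505). PLA2G4A, a phospholipase gene, was also higher and PTGES, a prostaglandin synthase gene, also lower. Both calls were lost without either LN-18 or either KALS-1 library (adjusted p between 0.0577 and 0.193), that of PTGES also without T98G replicate 2 (adjusted p = 0.0943), with DESeq2 (adjusted p = 0.0655) and with all 8 lines (adjusted p = 0.129), and that of PLA2G4A with limma (adjusted p = 0.0861).

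DHRS3, which turns retinal back into retinol and is itself induced by retinoic acid, had 0 and 0.102 CPM in LN-18, against 9.92 and 8.78 CPM in KALS-1 and 12.7 and 2.69 CPM in T98G. LN-18 was at 2 reads in all, whereas the T98G libraries differed widely from each other (a KALS-1 to LN-18 ratio of 181 with a 95% counting interval of 49.6 to 1498, a T98G to LN-18 ratio of 154 with a 95% counting interval of 42.3 to 1279, adjusted p = 0.00312). RARRES2 (chemerin), another gene that retinoids induce, had 0.261 and 0 CPM in LN-18, against 10.9 and 11.0 CPM in KALS-1 and 0.530 and 4.67 CPM in T98G. RARRES2 was lower in LN-18 than in every other library (log2 fold change -6.33 ± 1.19 over KALS-1 and -4.25 ± 1.26 over T98G, adjusted p = 0.0360). The RARRES2 call was lost without LN-18 replicate 1 (adjusted p = 0.0624), LN-18 replicate 2 (adjusted p = 0.160), KALS-1 replicate 1 (adjusted p = 0.0957) or KALS-1 replicate 2 (adjusted p = 0.0889), and with limma (adjusted p = 0.0583). These were the 2 of 4 tested retinoid genes lower than in both lines, beside 6.79% of all tested genes. GFPT2, the first enzyme of the hexosamine pathway, had 1.51 and 1.58 CPM in LN-18, against 21.0 and 17.4 CPM in KALS-1 and 14.3 and 11.2 CPM in T98G. GFPT2 was lower in both LN-18 libraries than in the other 4 (log2 fold change -3.62 ± 0.26 over KALS-1 and -3.03 ± 0.25 over T98G, adjusted p = 0.000321).

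Both neuropilin genes were lower in LN-18. NRP2, a coreceptor of semaphorins and vascular endothelial growth factors, had 5.59 and 5.95 CPM in LN-18, against 134 and 131 CPM in KALS-1 and 54.1 and 59.7 CPM in T98G. For NRP2, neither LN-18 library overlapped the other 4 (log2 fold change -4.52 ± 0.18 over KALS-1 and -3.30 ± 0.17 over T98G, adjusted p = 8.03e-05). NRP1, its relative, had 70.8 and 64.1 CPM in LN-18, against 173 and 182 CPM in KALS-1 and 138.16 and 145 CPM in T98G (log2 fold change -1.40 ± 0.16 over KALS-1 and -1.07 ± 0.16 over T98G, adjusted p = 0.00249). NRP1 lost its call without LN-18 replicate 2 (adjusted p = 0.0545). SEMA5A, a membrane-bound semaphorin, had 0.366 and 0.204 CPM in LN-18, against 2.22 and 1.68 CPM in KALS-1 and 33.7 and 97.2 CPM in T98G. The SEMA5A call was lost without LN-18 replicate 1 (adjusted p = 0.0681), LN-18 replicate 2 (adjusted p = 0.120), KALS-1 replicate 1 (adjusted p = 0.0997) or KALS-1 replicate 2 (adjusted p = 0.0621). NTN1, the secreted cue netrin-1, had 0.261 and 0.153 CPM in LN-18, against 2.39 and 3.22 CPM in KALS-1 and 1.01 and 1.93 CPM in T98G. NTN1 lost its call without LN-18 replicate 2 (adjusted p = 0.0773). In contrast SEMA7A, a membrane-anchored semaphorin, had 35.5 and 32.8 CPM in LN-18, against 9.98 and 8.73 CPM in KALS-1 and 2.44 and 1.17 CPM in T98G (log2 fold change 1.87 ± 0.30 over KALS-1 and 4.23 ± 0.34 over T98G, adjusted p = 0.00309), and SEMA4F was higher too. Beside 6.79% lower and 16.6% higher over all tested genes, 5 of 19 tested axon guidance genes (26.3%) were lower than both lines and 2 (10.5%) were higher. The medians were -1.03 over KALS-1 and -0.74 over T98G.

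Matrix genes moved both ways, with 4 of 20 tested (20.0%) higher and 4 (20.0%) lower than in both lines. The shares over all tested genes were 16.6% and 6.79%. FN1, fibronectin, had 356 and 333 CPM in LN-18, against 2233 and 2266 CPM in KALS-1 and 476 and 1546 CPM in T98G. FN1 was lower in both LN-18 libraries than in the other 4 (log2 fold change -2.71 ± 0.51 over KALS-1 and -1.55 ± 0.49 over T98G, adjusted p = 0.0435). T98G replicate 1 was near LN-18. FN1 lost its call without either LN-18 or either KALS-1 library, though its log2 fold change over T98G stayed between -1.60 and -1.51. Without T98G replicate 2 it was -0.47, short of the limit. With limma the FN1 call was lost as well (adjusted p = 0.0966). COL4A6, LAMB4 and TNXB of the matrix list were higher too, and ECM2 was lower. Without LN-18 replicate 1 or 2 the calls of COL4A6, LAMB4 and TNXB were lost, and without KALS-1 replicate 1 those of COL4A6 and TNXB (adjusted p between 0.0563 and 0.113), as was that of ECM2 without LN-18 replicate 2 (adjusted p = 0.0696). LAMC1, the gamma subunit shared by many laminins, had 243 and 249.6 CPM in LN-18, against 660.3 and 679.9 CPM in KALS-1 and 569.8 and 609 CPM in T98G. For LAMC1, neither LN-18 library overlapped the other 4 (log2 fold change -1.45 ± 0.17 over KALS-1 and -1.26 ± 0.17 over T98G, adjusted p = 0.00172). LTBP3, which holds latent TGF-beta in the matrix, had 17.7 and 18.4 CPM in LN-18, against 160.2 and 157 CPM in KALS-1 and 64.5 and 99.3 CPM in T98G. LTBP3 was lower in LN-18 than in every other library (log2 fold change -3.13 ± 0.24 over KALS-1 and -2.18 ± 0.24 over T98G, adjusted p = 0.000676). LAMC3, another gamma subunit, was on the higher side with 6.43 and 6.56 CPM in LN-18, against 0 and 0.408 CPM in KALS-1 and 0.159 and 0.117 CPM in T98G. LAMC3 was higher in both LN-18 libraries than in the other 4 (log2 fold change 4.87 ± 0.72 over KALS-1, log2 fold change 5.48 ± 0.77 over T98G, adjusted p = 0.00223). LN-18 thus had less LAMC1 and more LAMC3 than both lines.

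Of 26 tested extracellular proteases and inhibitors, 4 (15.4%) were higher and 5 (19.2%) lower, beside 16.6% and 6.79% of all tested genes. Among the higher ones were PRSS12, TMPRSS15 and the collagenase gene MMP13, and among the lower ones ADAMTS14 and MMP28. The MMP13 call was lost with TMM or RLE factors (log2 fold change 0.70 and 0.75). MMP13 also fell short of the fold limit without LN-18 replicate 1 (0.94) or T98G replicate 2 (0.74). Without LN-18 replicate 2 (1.12) or either KALS-1 library (1.03) it met the fold limit, but the adjusted p was not under 0.05. MMP28 lost its call without LN-18 replicate 1 or either KALS-1 library, at log2 fold changes between -3.82 and -2.62. ADAMTS19, a secreted metalloprotease, had 43.3 and 39.2 CPM in LN-18, against 0 reads in both KALS-1 libraries and 1.75 and 1.46 CPM in T98G (at least 505-fold higher than KALS-1, log2 fold change 4.68 ± 0.25 over T98G, adjusted p = 0.000147). CTSK, the collagen-degrading cathepsin of osteoclasts, had 0.575 and 0.712 CPM in LN-18, against 6.54 and 5.61 CPM in KALS-1 and 3.18 and 5.14 CPM in T98G. CTSK was lower in LN-18 than in every other library (log2 fold change -3.22 ± 0.37 over KALS-1 and -2.68 ± 0.38 over T98G, adjusted p = 0.00189). FAP, a serine protease of activated fibroblasts, had 0.366 and 0.153 CPM in LN-18, against 1.75 and 2.91 CPM in KALS-1 and 2.92 and 2.75 CPM in T98G. FAP was lower in both LN-18 libraries than in the other 4 (log2 fold change -3.15 ± 0.51 over KALS-1 and -3.42 ± 0.51 over T98G, adjusted p = 0.00338). PCDH1, a protocadherin, had 0.157 and 0.0509 CPM in LN-18, against 15.6 and 18.6 CPM in KALS-1 and 17.2 and 3.68 CPM in T98G, and KCNE4, a regulatory subunit of potassium channels, had 10.3 and 8.3958 CPM in LN-18, against 146 and 135 CPM in KALS-1 and 171 and 407 CPM in T98G. For both, every LN-18 library lay under the other 4, although the T98G pair was wide (PCDH1 log2 fold change -7.28 ± 0.98 over KALS-1 and -6.58 ± 0.99 over T98G, adjusted p = 0.00247, and KCNE4 log2 fold change -3.91 ± 0.42 over KALS-1 and -4.95 ± 0.44 over T98G, adjusted p = 0.000676). PSG4 and PSG5, pregnancy-specific glycoproteins of a family with near-identical members, were both lower, and PSG4 had 0.0522 and 0.153 CPM in LN-18, against 11.0 and 10.2 CPM in KALS-1 and 51.9 and 47.1 CPM in T98G.

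Of 17 tested homeobox genes, DLX4, of the distal-less family, was the 1 higher (5.88%, beside 16.6% of all tested genes). It had 9.61 and 9.21 CPM in LN-18, against 0.817 and 0.459 CPM in KALS-1 and 2.81 and 5.61 CPM in T98G. The DLX4 call was lost with TMM (adjusted p = 0.0918) or RLE factors (adjusted p = 0.0767), with limma (adjusted p = 0.0654), and without LN-18 replicate 1 (adjusted p = 0.201), LN-18 replicate 2 (adjusted p = 0.182), KALS-1 replicate 1 (adjusted p = 0.0979), KALS-1 replicate 2 (adjusted p = 0.0912) or T98G replicate 1 (log2 fold change 0.75). Of 10 neural and glial identity genes, SOX5 was the 1 lower (10.0%, beside 6.79% of all tested genes). Of 5 hypoxia and glycolysis genes, 0 were called in either direction, as with limma and DESeq2, while 1 was higher and 1 lower at an unadjusted p under 0.05. Among 60 antisense and divergent non-coding RNAs, 12 (20.0%) were higher and 0 lower, beside 16.6% and 6.79% of all tested genes. At an unadjusted p under 0.05, 1 was lower, and with limma or DESeq2 0 were. The higher ones were 12 with limma and 9 with DESeq2. ZNF503-AS1 and SEC61G-DT were among the higher ones, and the SEC61G-DT call was lost without LN-18 replicate 1 (adjusted p = 0.0681), LN-18 replicate 2 (adjusted p = 0.103) or KALS-1 replicate 1 (adjusted p = 0.0505). ADAMTS19-AS1, which lies antisense to ADAMTS19, had 4.07 and 4.63 CPM in LN-18, against 0 reads in both KALS-1 libraries and 0.159 and 0.351 CPM in T98G. For ADAMTS19-AS1, neither LN-18 library overlapped the other 4 (at least 53.3-fold higher than KALS-1, log2 fold change 4.08 ± 0.47 over T98G, adjusted p = 0.00148).

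The remaining leading lower genes had moderate levels in both other lines. AFF3, a nuclear protein of the AF4 family, had 1.41 and 1.37 CPM in LN-18, against 19.6 and 21.9 CPM in KALS-1 and 10.9 and 17.5 CPM in T98G. AFF3 was lower in LN-18 than in every other library (log2 fold change -3.89 ± 0.31 over KALS-1 and -3.35 ± 0.30 over T98G, adjusted p = 0.000382). TMOD2, a cap of actin filaments in neurons, had 3.76 and 3.26 CPM in LN-18, against 20.7 and 24.2 CPM in KALS-1 and 10.2 and 19.6 CPM in T98G (log2 fold change -2.68 ± 0.34 over KALS-1 and -2.08 ± 0.34 over T98G, adjusted p = 0.00342). RBPMS2, an RNA-binding protein of smooth muscle, had 2.72 and 1.98 CPM in LN-18, against 17.3 and 17.9 CPM in KALS-1 and 9.91 and 13.4 CPM in T98G. For these 3 genes both LN-18 libraries lay under the other 4. SH3YL1 and LONRF2 were also lower, with a log2 fold change over KALS-1 of -2.67 for SH3YL1 and -2.14 for LONRF2. Of 31 tested cytoskeletal genes, 5 (16.1%) were higher than both lines and 3 (9.68%) lower, beside 16.6% and 6.79% of all tested genes. MYO1D was among the higher ones, and its call was lost without KALS-1 replicate 2 (adjusted p = 0.0558). The lower ones were ARHGAP22, DNAH10 and DOCK5. The DNAH10 call was lost without LN-18 replicate 2 (adjusted p = 0.0748) or KALS-1 replicate 2 (adjusted p = 0.0523), and that of DOCK5 without LN-18 replicate 1 (adjusted p = 0.0906), KALS-1 replicate 1 (adjusted p = 0.0683) or KALS-1 replicate 2 (adjusted p = 0.172).

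Genes of drug and oxidant metabolism placed LN-18 between the other lines and not beyond them. Of 27 tested, 15 were higher than in KALS-1, against 29.7% of all tested genes, and 16 were lower than in T98G, against 16.8% of all. The median log2 fold changes were 1.27 over KALS-1 and -1.26 over T98G, beside -0.01 and 0.47 for all tested genes. Of the list, 1 gene was higher and 1 lower than both lines (3.70% each, beside 16.6% and 6.79% of all tested genes). The higher one was SULT1C4, a sulfotransferase, at 1.04 and 1.37 CPM in LN-18, against 0 reads in both KALS-1 libraries and 0.159 and 0.467 CPM in T98G. Its call was lost with DESeq2 (adjusted p = 0.134), TMM (adjusted p = 0.0626) or RLE factors (adjusted p = 0.0555) and without any 1 library other than T98G replicate 2 (adjusted p between 0.0720 and 0.244). The lower one was MGST3, a membrane-bound glutathione transferase, with 12.1 and 12.7 CPM in LN-18, against 39.5 and 37.6 CPM in KALS-1 and 25.1 and 37.7 CPM in T98G. For MGST3, neither LN-18 library overlapped the other 4 (log2 fold change -1.63 ± 0.23 over KALS-1 and -1.34 ± 0.23 over T98G, adjusted p = 0.00400). Many of these genes are known targets of the transcription factor NRF2. AKR1B10, an aldo-keto reductase, had 105 and 108 CPM in LN-18, against 1.11 and 0.970 CPM in KALS-1 and 583 and 1849 CPM in T98G (log2 fold change 6.68 ± 0.64 over KALS-1, log2 fold change -3.51 ± 0.51 over T98G). GCLC, which starts glutathione synthesis, had 209.8 and 199.9 CPM in LN-18, against 22.9 and 22.5 CPM in KALS-1 and 417 and 562 CPM in T98G (log2 fold change 3.17 ± 0.21 over KALS-1, log2 fold change -1.26 ± 0.20 over T98G). SLC7A11, the cystine importer, had 1021 and 947 CPM in LN-18, against 28.5 and 32.6 CPM in KALS-1 and 1322 and 1401 CPM in T98G, near T98G and far above KALS-1 (log2 fold change 5.01 ± 0.22 over KALS-1, adjusted p = 6.46e-06 for the KALS-1 contrast). NQO1, a quinone reductase, had 1883 and 2021 CPM in LN-18, against 353 and 341 CPM in KALS-1 and 2625 and 4257 CPM in T98G. The order for AKR1B10 and GCLC was T98G, LN-18, KALS-1, with no overlap of libraries. ALDH1L2, a mitochondrial folate enzyme, ran the other way with 0.940 and 1.22 CPM in LN-18, against 11.4 and 12.8 CPM in KALS-1 and 0.106 and 0.0584 CPM in T98G.

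Genes of amino acid and endoplasmic reticulum stress were mostly lower in LN-18 than in T98G. Of 8 tested, 6 were lower than in T98G, against 16.8% of all tested genes, and 0 were higher, against 33.8% of all. The median log2 fold change over T98G was -2.75, beside 0.47 for all tested genes. Over KALS-1 the median was 0.46, with 3 higher and 1 lower, beside 29.7% and 28.6% of all tested genes. SDF2L1, a chaperone cofactor, was lower than both lines, but its call was lost with TMM (adjusted p = 0.0733) or RLE factors (adjusted p = 0.0714), with limma (adjusted p = 0.0553) and without either LN-18 or either KALS-1 library (adjusted p between 0.138 and 0.180). HYOU1, a chaperone, had 411 and 407 CPM in LN-18, against 278 and 277 CPM in KALS-1 and 3671 and 1068 CPM in T98G (log2 fold change -2.53 ± 0.52 over T98G, adjusted p = 0.00506 for the T98G contrast). CRELD2 had 49.1 and 50.7 CPM in LN-18, against 49.8 and 51.8 CPM in KALS-1 and 781 and 222 CPM in T98G, and TRIB3, a pseudokinase of the stress response, had 49.1 and 53.1 CPM in LN-18, against 10.4 and 9.54 CPM in KALS-1 and 551 and 251 CPM in T98G. In HYOU1, CRELD2 and TRIB3, T98G replicate 1 was far above replicate 2, so the T98G level is poorly fixed, though both lay above LN-18.

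**Figure D4:**
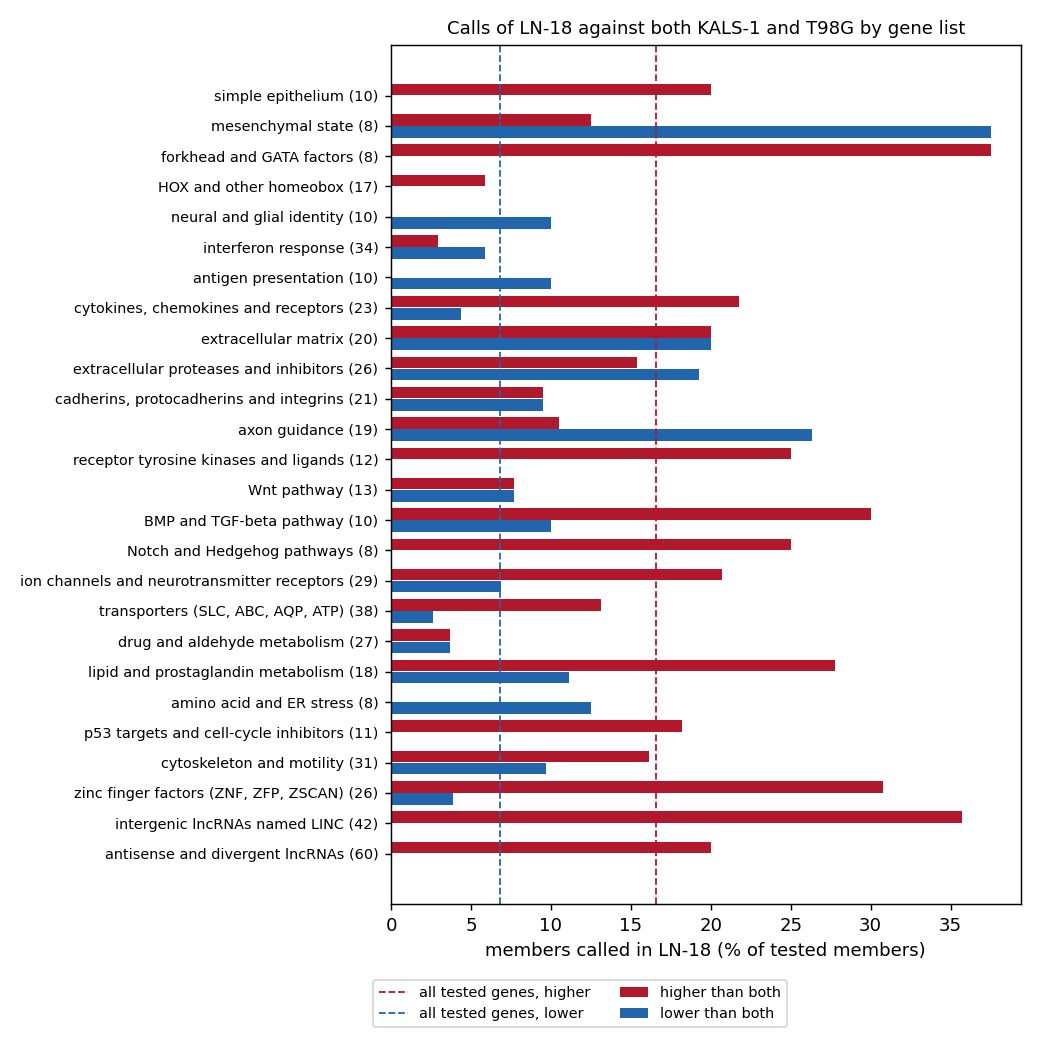
Share of the tested members of each gene list (number in brackets; lists with at least 8) that were higher (red) or lower (blue) in LN-18 than in both KALS-1 and T98G, with dashed lines at the shares of all tested genes, 16.6% and 6.79%. Forkhead and GATA factors, LINC RNAs and zinc finger factors have the longest red bars, and mesenchymal genes have the longest blue bar. No list was tested.

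Over all tested genes 16.6% were higher and 6.79% lower. Among lists with at least 8 tested members, the largest shares of higher genes fell to 3 lists. They were forkhead and GATA factors (3 of 8), long intergenic RNAs named LINC (15 of 42) and zinc finger factors (8 of 26). With limma these counts were 2, 15 and 7. Among the same lists, the largest shares of lower genes fell to mesenchymal genes (3 of 8) and axon guidance (5 of 19). No list was tested, lists share members, and in the short ones a single gene moves the share by several percent. Of the LINC RNAs, 0 were lower than both lines, as at an unadjusted p under 0.05, by limma and by DESeq2. LINC02009 had 9.04 and 11.6 CPM in LN-18, against 0.117 and 0.0510 CPM in KALS-1 and 0 and 0.117 CPM in T98G, and LINC02889 had 11.4 and 11.0 CPM in LN-18, against 0.0584 and 0.0510 CPM in KALS-1 and 0.530 and 1.64 CPM in T98G. LINC02882 was higher as well. Among zinc finger genes, ZNF676 and ZNF732 were higher and ZSCAN30 was lower, and ZNF257 had 12.7 and 10.4 CPM in LN-18, against 0.350 and 0.153 CPM in KALS-1 and 0 reads in both T98G libraries and ZNF98 had 10.0 and 8.70 CPM in LN-18, against 0.175 and 0.357 CPM in KALS-1 and 0.106 and 0.234 CPM in T98G (log2 fold change 5.08 ± 0.43 over KALS-1 and 5.75 ± 0.46 over T98G, adjusted p = 0.000321), but these lie in a family of recent duplicates on chromosome 19, so their reads are uncertain.

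By chromosome, the highest share of higher genes was on chromosome 16, where 23 of 78 tested genes (29.5%) were higher than both lines and 2 were lower. The median log2 fold change of chromosome 16 was 1.14 over KALS-1 and 0.79 over T98G, against -0.01 and 0.47 over all tested genes. The next shares were 21 of 80 on chromosome 19, 19 of 76 on chromosome 4 and 18 of 73 on chromosome 17, and the lowest was 1 of 39 on chromosome 22. Of the 17 higher genes at 100 CPM or more in LN-18, 10 lay on chromosome 16. That chromosome held 78 of the 1560 tested genes and 23 of the 259 higher ones. Its share of all tested genes at 100 CPM or more was not counted, so the 10 of 17 cannot be weighed. The chromosome and the genes named for it were picked after their values were seen.

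KARS1, the lysyl-tRNA synthetase (chr16:75627474-75648643), had 848 and 899 CPM in LN-18, against 211 and 195 CPM in KALS-1 and 306 and 243 CPM in T98G, and at 216 FPKM it had the highest level per length of all 259 higher genes. The difference was larger than the spread of any pair (log2 fold change 2.11 ± 0.20 over KALS-1 and 1.67 ± 0.20 over T98G, adjusted p = 0.000937). PSMD7, a subunit of the proteasome lid (chr16:74296775-74306288), had 455 and 482 CPM in LN-18, against 134 and 124 CPM in KALS-1 and 144 and 149 CPM in T98G. PSMD7 was higher in LN-18 than in every other library (log2 fold change 1.86 ± 0.17 over KALS-1 and 1.68 ± 0.17 over T98G, adjusted p = 0.000539). CD2BP2, a splicing protein (chr16:30350766-30355361), had 391 and 405 CPM in LN-18, against 86.8 and 80.0 CPM in KALS-1 and 106 and 111 CPM in T98G. CD2BP2 was higher in both LN-18 libraries than in the other 4 (log2 fold change 2.26 ± 0.17 over KALS-1 and 1.88 ± 0.17 over T98G, adjusted p = 0.000343). NIP7, a ribosome assembly factor (chr16:69337996-69343111), had 225 and 224 CPM in LN-18, against 48.6 and 53.4 CPM in KALS-1 and 72.4 and 53.8 CPM in T98G. For NIP7, neither LN-18 library overlapped the other 4 (log2 fold change 2.14 ± 0.20 over KALS-1 and 1.83 ± 0.20 over T98G, adjusted p = 0.000676). For each of the 4 genes, both LN-18 libraries lay above the other 4.

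The called genes ZFP1, BCAR1 and CFDP1 of chromosome 16 lay close together, with 55951 bases between ZFP1 and BCAR1 and 25645 between BCAR1 and CFDP1. KARS1 lay further along, more than 100000 bases from the nearest of them. BCAR1, an adaptor of focal adhesions, had 348 and 351 CPM in LN-18, against 127 and 123 CPM in KALS-1 and 146 and 142 CPM in T98G, and CFDP1 had 186 and 179.9 CPM in LN-18, against 71.6 and 71.8 CPM in KALS-1 and 54.8 and 43.1 CPM in T98G. ZFP1 had 63.8 and 62.1 CPM in LN-18, against 26.4 and 26.1 CPM in KALS-1 and 15.6 and 11.9 CPM in T98G. All were higher in LN-18 than in every other library. With TMM factors the BCAR1 call was lost (log2 fold change 0.96 over T98G). Copy number was not analysed here.

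**Figure D5:**
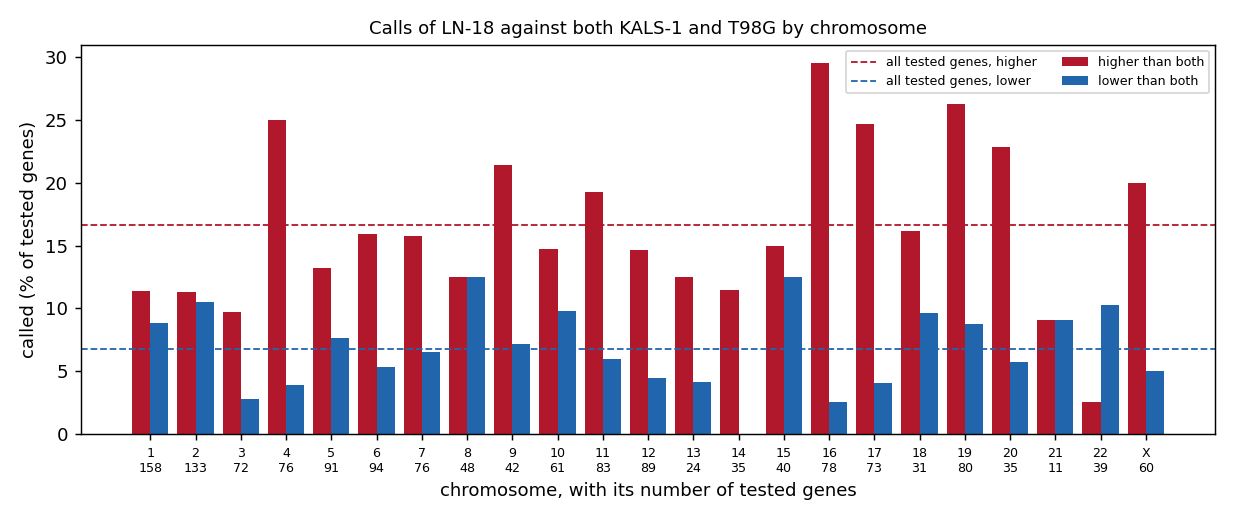
Share of the tested genes of each chromosome that were higher (red) or lower (blue) in LN-18 than in both KALS-1 and T98G, with the number of tested genes under each name and dashed lines at the shares over all tested genes. Chromosome 16 has the tallest red bar, 29.5%.

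Neighbouring genes were also set side by side. Of 296 pairs of adjacent tested genes within 100000 bases, 25 were both higher, 2 were both lower, 1 had opposite calls, 89 held exactly 1 call and 179 held none. Taken singly, 16.6% of all tested genes were higher and 6.79% lower than both lines. A gene can stand in more than 1 pair, and the genes of some pairs overlap, so the pairs are not independent. Whether the pair counts differ from those expected of the single-gene shares was not tested. The pairs both lower were BST2 with BISPR and PSG5 with PSG4. The pair with opposite calls was SPN and QPRT on chromosome 16, where SPN had 1.04 and 1.17 CPM in LN-18, against 0.117 and 0.204 CPM in KALS-1 and 0.106 and 0.0584 CPM in T98G and QPRT, an enzyme of NAD synthesis, had 0.888 and 0.967 CPM in LN-18, against 3.85 and 4.34 CPM in KALS-1 and 7.90 and 24.7 CPM in T98G. SPN lost its call without LN-18 replicate 1 (adjusted p = 0.0551), LN-18 replicate 2 (adjusted p = 0.0688) or KALS-1 replicate 1 (adjusted p = 0.0552). QPRT lost its call without LN-18 replicate 1 (adjusted p = 0.119), LN-18 replicate 2 (adjusted p = 0.113), KALS-1 replicate 1 (adjusted p = 0.0863) or KALS-1 replicate 2 (adjusted p = 0.102). Where uncalled genes between them are allowed, BAALC (lower) and FZD6 (higher), 68128 bases apart, also had opposite calls. Pairs both higher included FENDRR with FOXF1, CARD16 with CASP1, and WT1 with its antisense WT1-AS. WT1-AS had 4.34 and 5.14 CPM in LN-18, against 1.40 and 1.79 CPM in KALS-1 and 0.0530 and 0.467 CPM in T98G. The WT1-AS call was lost without LN-18 replicate 1 (adjusted p = 0.145), LN-18 replicate 2 (adjusted p = 0.213), KALS-1 replicate 1 (adjusted p = 0.236) or KALS-1 replicate 2 (adjusted p = 0.159), and with limma (adjusted p = 0.103). Strand in counting is not stated, so where antisense genes overlap the reads of the pair cannot be told apart.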

How the data were processed

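Poly(A) RNA of LN-18, KALS-1 and T98G was sequenced from strand-specific libraries, per the labels' protocols. The submitters' processing notes name the build hg38 and the tools HISAT2 2.2.1, StringTie 1.3.3, HTSeq 0.6.0, FastQC 0.10.1 and cutadapt 1.9.1, with no role for each. How the listed genes were chosen, and whether strand was used in counting, is not stated. The authors deposited raw read counts per gene and library, not normalized, and FPKM values computed by the authors with the deposited gene length.

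From the deposited counts, gene lengths and FPKM values, the total reads of each library were worked out (17117491 to 19652670). These totals gave back the FPKM of at least 99.955% of values, with a deviation of library estimates of at most 0.0240%. CPM are reads over these totals. Counting intervals and limits for 0 reads cover counting error only. Genes were filtered with edgeR's filterByExpr by line (minimum count 10). A quasi-likelihood fit of the 6 libraries (edgeR 4.0.16, R 4.3.3) with 1 coefficient per line and no block gave LN-18 against KALS-1 and against T98G. The larger of both p-values was adjusted by Benjamini and Hochberg over all tested genes. A call needed an adjusted p under 0.05, a log2 fold change of at least 1 in both contrasts and no overlap of libraries. The script was tested on simulated data.

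The genes and the 32 gene lists were chosen with earlier results of these data known, and lists built from name prefixes lost misfits after values were seen. The rule for named genes took the 15 genes per direction with the largest gap to the nearer line, log2 of mean CPM + 0.5, among those with at least 10 CPM in LN-18 (higher) or in the lower of the other lines (lower), and up to 4 called members per list and direction, 115 genes in all. A few of these stand in the count of their list only. Every other gene was named after its values were seen. Coordinates came from GENCODE 29 for 2153 of the 2221 genes, and promoter windows from RefSeq GRCh38.p14. Alternatives were TMM and RLE factors, DESeq2 1.42.0, limma 3.58.1 (log2 scale, prior count 2), no filter, all 8 lines of the table, a replicate block, a stricter fold, no separation of libraries, and each library left out. A line left with 1 library was then assumed to vary like the other lines. A second deposited table, of 3 other lines, was not used here.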

Additional observations from a re-analysis of the deposited data

How the results depend on the processing

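The 2 libraries per line limit every p-value here, and T98G libraries varied most. Of the 259 genes higher and 106 lower than both lines, 163 and 61 were called without LN-18 replicate 1, and 161 and 55 without LN-18 replicate 2. Over the 6 libraries left out in turn, the counts ran from 161 to 303 higher and from 55 to 137 lower. With a log2 fold change of at least 2, 166 genes were higher and 57 lower than both lines, 296 were lower than KALS-1 and 154 lower than T98G. Requiring no separation of libraries left the counts of 259 and 106 as they were, and TMM factors gave 236 and 130. No result changed direction under an alternative run. Of the 115 genes taken by the rule, TMM and RLE factors ended 9 calls each, limma 7, DESeq2 5, the 8-line fit 1 and no filter 1. Leaving out a library ended the calls of 5 to 33 of them.

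Replicate numbers did not pair the libraries: the correlations of the differences between same-numbered libraries were 0.00653, -0.0658 and 0.00428 over 894 genes. With the replicate block, 245 genes were higher and 100 lower than both lines, 453 higher and 437 lower than KALS-1, and 511 higher and 256 lower than T98G. Of the 115 genes taken by the rule, 4 lost their call under the block: DLX4, TNFRSF13C, BTC and BMPR1B (adjusted p between 0.0578 and 0.0661). The cause was not tested.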
